A study of Mus musculus with 11 samples.

Results

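The 34 genes described here mark macrophages and other myeloid cells, the innate immune cells that engulf debris and microbes. They were chosen by name, as genes known for resident macrophages, monocytes or neutrophils, out of 22180 genes that had a probe set with a single symbol. Earlier results of these data were known when the list was made. Its counts beside those of all genes therefore describe the list and do not test it. All 34 were measured, each by 1 such probe set. They were followed in whole stomachs of adult C57Bl/6 mice given daily intraperitoneal injections, with tamoxifen and rapamycin tested alone and together. The rapamycin plus tamoxifen group (2 arrays) had rapamycin at 0.6 mg per 20 g of mouse for 10 days and tamoxifen at 5 mg per 20 g for 3 days. The tamoxifen group (2 arrays) and the rapamycin group (3 arrays) had 1 of these drugs at the same dose and for the same time, and the vehicle group (2 arrays) had sunflower oil. One more array held parietal cells isolated from the stomach and another held all other stomach cells. Replicates are labelled as biological, but whether each array held the RNA of 1 mouse is not stated, so the p-values measure the spread between these arrays.

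Tamoxifen is a selective estrogen receptor modulator that, at high dose, injures the acid-secreting parietal cells of the mouse stomach within days. Rapamycin inhibits the kinase complex mTORC1, which drives growth and protein synthesis. Resident macrophages depend on the growth factor receptor Csf1r and clear dying cells through scavenger receptors, complement C1q and Fc receptors, and degrade what they take up in lysosomes. Monocytes recruited from blood use the chemokine receptor Ccr2, and neutrophils carry large amounts of the calcium-binding proteins S100a8 and S100a9.

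The deposited values were log2 expression on Affymetrix arrays. All values below are on that scale, and 1 unit is a change by a factor of 2.0. The 9 whole-stomach arrays resembled each other closely, with Pearson's r between 0.962 and 0.988 over probe sets. One pair stood apart in another way: tamoxifen 2 and vehicle 2 held exactly the same value at 7093 probe sets, or 17.2% of them, and the next highest pair of whole-stomach arrays at 58. The shared values covered 4221 of the 22180 genes, and 2 of the 34, S100a8 and S100a9. Results that rest on these arrays are therefore also given with the pair treated as a block and with both arrays left out, alternatives chosen after the data were seen. Genes of squamous forestomach also differed between arrays within groups. Their mean was 9.004 and 9.36 with rapamycin plus tamoxifen, 9.82 and 5.00 with tamoxifen, 9.73, 8.54 and 5.54 with rapamycin, and 5.27 and 4.83 with vehicle. Parietal cell genes, the tissue check for tamoxifen, had a mean of 9.25 to 9.62 in the 4 arrays with tamoxifen and of 10.33 to 10.57 in the 5 without.

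The mean of the 34 genes was 6.13 and 6.31 with rapamycin plus tamoxifen, 6.28 and 6.70 with tamoxifen, 5.99, 5.97 and 5.85 with rapamycin, and 6.00 and 5.93 with vehicle. All 4 arrays with tamoxifen lay above all 5 without it, by little in the lowest of them. In bulk tissue, more cells of a type and more RNA per cell cannot be told apart. Averaged over the presence of rapamycin, tamoxifen raised 6 of the 34 genes and lowered none at an adjusted p under 0.05 in limma, where 3.24% of all genes were called higher. At an unadjusted p under 0.05 in either direction there were 16 of the 34, and 17.6% of all genes. The median log2 difference of the 34 was 0.38, against -0.02 over all genes, with 31 positive and 3 negative. The 6 were the protease Ctss, the lysozyme Lyz2, the lectin Clec7a, the receptor Tlr1, the scavenger receptor Cd68 and the integrin chain Itgb2.

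**Figure D1:**
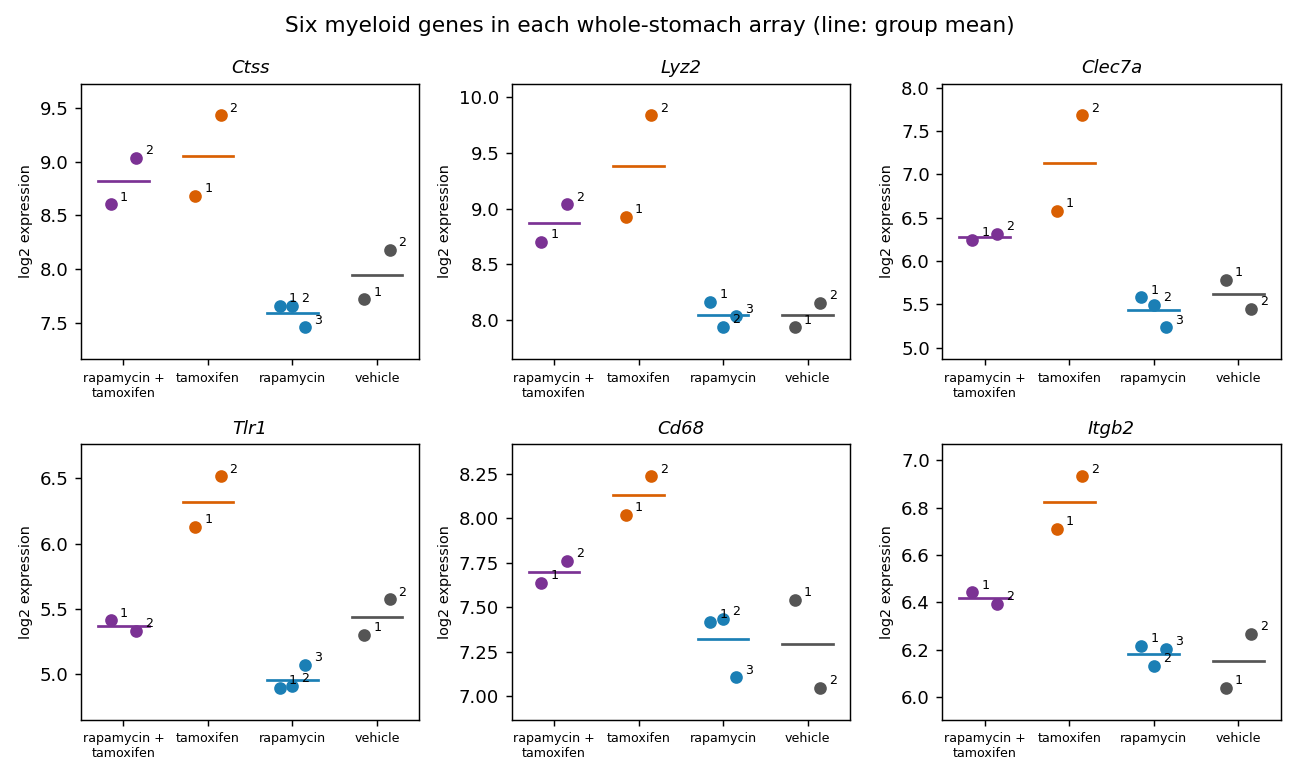
Log2 expression of the 6 genes that rose with tamoxifen, averaged over rapamycin, in each of the 9 whole-stomach arrays. Each point is an array and each line is the mean of its group. For Ctss, Lyz2, Clec7a, Cd68 and Itgb2, every array with tamoxifen lay above every array without it, and for Tlr1 the rapamycin plus tamoxifen arrays lay within the range of the vehicle and rapamycin arrays.

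Lysosomal and lysozyme genes came first in order of significance. Ctss, or cathepsin S, the cysteine protease that trims the invariant chain of MHC class II, had 8.60 and 9.04 with rapamycin plus tamoxifen, 8.68 and 9.43 with tamoxifen, 7.66, 7.66 and 7.46 with rapamycin, and 7.72 and 8.18 with vehicle. The lowest array with tamoxifen was thus above the highest without. Its log2 difference with tamoxifen was 1.17 ± 0.18 (SE; limma, adjusted p = 0.00632), or 2.25-fold. Lyz2, the lysozyme of macrophages and neutrophils, had 8.70 and 9.04 with rapamycin plus tamoxifen, 8.93 and 9.83 with tamoxifen, 8.17, 7.94 and 8.04 with rapamycin, and 7.94 and 8.16 with vehicle. Again the 2 sets of arrays did not overlap, and the difference was 1.08 ± 0.18 (SE; limma, adjusted p = 0.00955). Lyz1, the lysozyme of Paneth cells in the intestine, lay between 4.73 and 5.56 in all 9 arrays, with a difference of 0.21 and an adjusted p of 0.637 in limma. The coding sequences of these lysozymes are close to identical, so the part of each in the other's probe signal is uncertain. Laptm5, a lysosomal membrane protein of blood cells, lay between 5.27 and 5.88, with a difference of -0.09 (limma, adjusted p = 0.841). In this role 2 of 4 genes rose.

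Of the 4 genes that rose with the smallest adjusted p, Ctss, Lyz2 and Clec7a separated all arrays with tamoxifen from all without, and Tlr1 did not. The 250 bases before the start of these 4 genes are shown. They are from RefSeq on GRCm38.p6, written 5′ to 3′ on the strand of the gene, and capitals mark GAGGAA, the purine-rich core bound by the myeloid ETS factor PU.1, searched on both strands. The windows are chr3:95526536-95526785 on the plus strand for Ctss, chr10:117282273-117282522 on the minus strand for Lyz2, chr6:129472780-129473029 on the minus strand for Clec7a and chr5:64933559-64933808 on the minus strand for Tlr1.
Ctss: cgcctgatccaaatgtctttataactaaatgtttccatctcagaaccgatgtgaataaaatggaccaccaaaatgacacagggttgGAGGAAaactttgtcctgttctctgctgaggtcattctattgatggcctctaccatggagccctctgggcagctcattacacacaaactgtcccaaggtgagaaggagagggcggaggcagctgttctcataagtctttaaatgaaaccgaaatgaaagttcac
Lyz2: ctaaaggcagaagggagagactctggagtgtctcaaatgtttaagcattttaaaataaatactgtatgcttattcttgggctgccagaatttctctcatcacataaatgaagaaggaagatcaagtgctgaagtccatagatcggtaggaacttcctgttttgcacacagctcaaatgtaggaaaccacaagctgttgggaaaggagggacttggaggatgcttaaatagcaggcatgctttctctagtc
Clec7a: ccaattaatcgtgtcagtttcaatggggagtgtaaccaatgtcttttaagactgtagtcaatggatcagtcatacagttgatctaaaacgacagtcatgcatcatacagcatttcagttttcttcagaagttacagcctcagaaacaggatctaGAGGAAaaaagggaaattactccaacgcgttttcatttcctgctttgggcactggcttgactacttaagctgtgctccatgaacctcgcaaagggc
Tlr1: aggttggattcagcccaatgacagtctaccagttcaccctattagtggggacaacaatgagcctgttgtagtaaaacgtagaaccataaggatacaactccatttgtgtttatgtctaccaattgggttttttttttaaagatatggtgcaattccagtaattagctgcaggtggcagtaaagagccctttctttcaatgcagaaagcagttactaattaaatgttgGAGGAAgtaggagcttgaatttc
The motif began 164 bases before the start in Ctss, 96 in Clec7a and 23 in Tlr1, and the Lyz2 window does not hold these letters. Of the 34 genes, 24 had an entry in the RefSeq promoter table, and 14 of them (58.3%) held the motif in this window, as did 6252 of 27025 genes (23.1%) in the table. A match describes the letters and is no evidence that a factor binds there.

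Genes of microbial recognition rose for 2 of 3. Clec7a, or dectin-1, the receptor for fungal beta-glucans, had 6.24 and 6.32 with rapamycin plus tamoxifen, 6.58 and 7.68 with tamoxifen, 5.58, 5.49 and 5.24 with rapamycin, and 5.78 and 5.45 with vehicle. The arrays with and without tamoxifen did not overlap, and tamoxifen 2 was highest by more than 1 unit. The log2 difference was 1.18 ± 0.21 (SE; limma, adjusted p = 0.0123), or 2.26-fold. Tlr1, which pairs with Tlr2 to detect bacterial lipoproteins, had 5.41 and 5.33 with rapamycin plus tamoxifen, 6.13 and 6.52 with tamoxifen, 4.90, 4.91 and 5.07 with rapamycin, and 5.30 and 5.58 with vehicle. Its arrays followed both drugs: tamoxifen alone was highest, rapamycin alone lowest, and rapamycin plus tamoxifen overlapped vehicle. The difference with tamoxifen, averaged over rapamycin, was 0.65 ± 0.12 (SE; limma, adjusted p = 0.0126). Tlr2 lay between 5.23 and 5.80 in all arrays, with a difference of 0.20 (limma, adjusted p = 0.489).

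Of the scavenger and endocytic receptors, 1 of 4 rose. Cd68, the lysosomal glycoprotein widely used to stain macrophages, had 7.64 and 7.76 with rapamycin plus tamoxifen, 8.02 and 8.24 with tamoxifen, 7.42, 7.44 and 7.11 with rapamycin, and 7.54 and 7.05 with vehicle. The margin between the sets of arrays was narrow, and the difference was 0.61 ± 0.13 (SE; limma, adjusted p = 0.0326). Msr1, which binds modified lipoproteins, had 4.72 and 4.63 with rapamycin plus tamoxifen, 5.22 and 5.85 with tamoxifen, 4.48, 4.92 and 3.95 with rapamycin, and 4.19 and 4.36 with vehicle. Both tamoxifen arrays were above the other 7, while rapamycin plus tamoxifen overlapped rapamycin, and the averaged difference of 0.75 ± 0.21 missed the threshold (SE; limma, adjusted p = 0.0757). Mrc1, the mannose receptor, and Cd163, which takes up haptoglobin with hemoglobin, had averaged differences of -0.02 and 0.12, with limma adjusted p of 0.964 and 0.696.

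The integrin and oxidase genes gave 1 call of 3. Itgb2, the shared beta chain of the leukocyte integrins, had 6.44 and 6.39 with rapamycin plus tamoxifen, 6.71 and 6.93 with tamoxifen, 6.22, 6.13 and 6.21 with rapamycin, and 6.04 and 6.27 with vehicle. Without overlap, the difference was the smallest of the 6 that rose, at 0.45 ± 0.10 (SE; limma, adjusted p = 0.0291). Its partner chain Itgam had 6.18 and 6.51 with rapamycin plus tamoxifen, 5.82 and 6.38 with tamoxifen, 6.11, 6.05 and 5.74 with rapamycin, and 5.78 and 5.40 with vehicle, so the groups overlapped (0.44 ± 0.16, SE; limma, adjusted p = 0.171). Cybb, the catalytic chain of the phagocyte NADPH oxidase, had 6.91 and 6.56 with rapamycin plus tamoxifen, 6.57 and 7.80 with tamoxifen, 6.37, 6.20 and 5.82 with rapamycin, and 6.03 and 6.38 with vehicle. Its arrays did not overlap either, but tamoxifen 2 stood far above tamoxifen 1, and the difference of 0.79 ± 0.25 was not called (SE; limma, adjusted p = 0.112). In all, 6 of the 34 genes had all 4 arrays with tamoxifen above all 5 without, the genes above apart from Tlr1 and with Cybb. Over all genes, 4.99% had this arrangement.

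**Figure D2:**
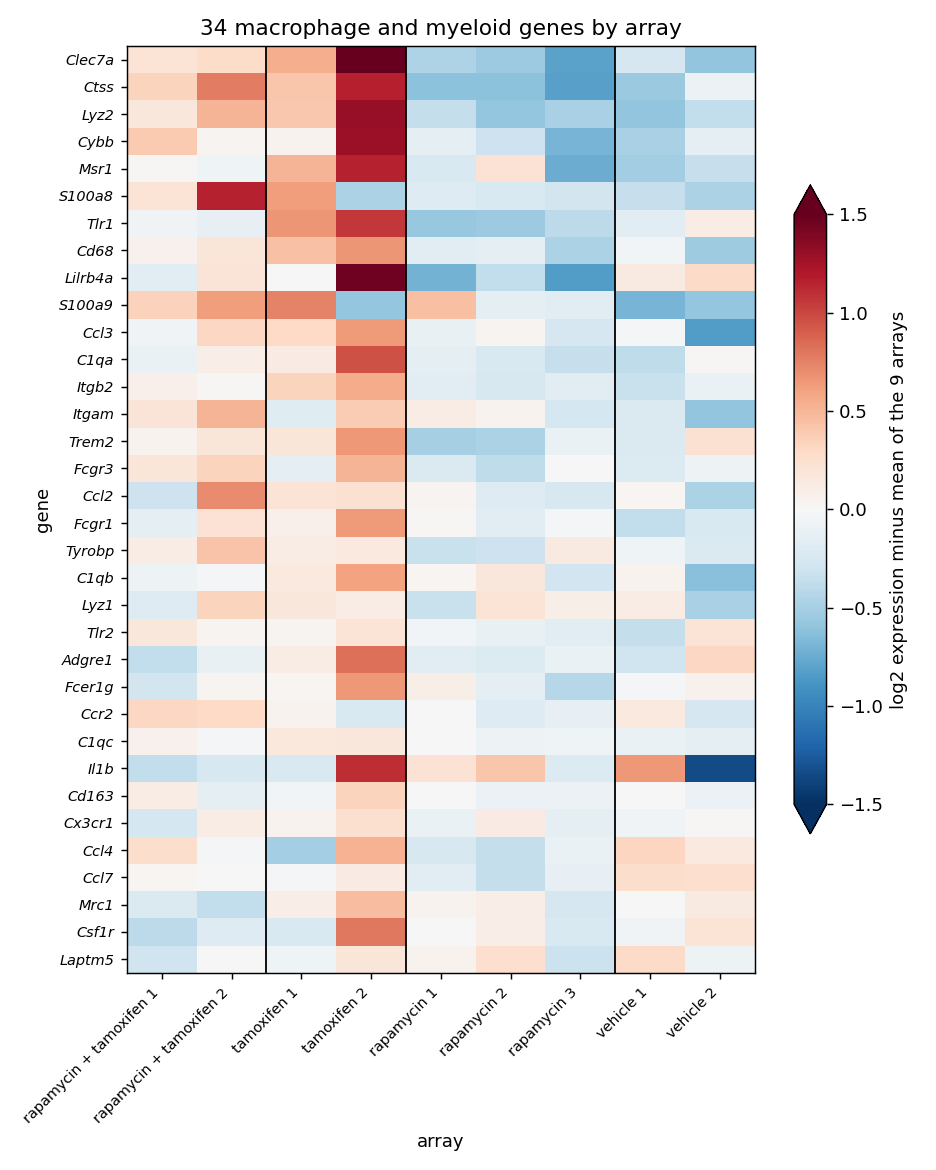
Log2 expression of the 34 genes in the 9 whole-stomach arrays, each gene relative to its mean over the 9 arrays, ordered by the tamoxifen difference averaged over rapamycin. Red is above and blue below that mean, and groups are parted by lines. The tamoxifen 2 column is the highest of the 9 for 24 of the 34 genes.

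Complement C1q, the macrophage-made subunit that starts the classical pathway, gave no call among its 3 chains. C1qa had 6.67 and 6.87 with rapamycin plus tamoxifen, 6.90 and 7.73 with tamoxifen, 6.64, 6.55 and 6.44 with rapamycin, and 6.40 and 6.80 with vehicle. C1qb had 8.10 and 8.17 with rapamycin plus tamoxifen, 8.33 and 8.78 with tamoxifen, 8.21, 8.35 and 7.89 with rapamycin, and 8.23 and 7.55 with vehicle. Tamoxifen 2 was the highest array for both chains, and the groups otherwise overlapped or lay close. C1qc varied least of the 34, within a range of 0.31 over 9 arrays. The averaged tamoxifen differences were 0.47 for C1qa, 0.32 for C1qb and 0.18 for C1qc, and the limma adjusted p for C1qa was 0.186. Tamoxifen alone against vehicle differed by 0.715, 0.664 and 0.285, with limma adjusted p of 0.312, 0.36 and 0.444.

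Receptors of macrophage identity and of growth factors or chemokines gave no call, among them Ccr2 of recruited monocytes. Adgre1, the classic surface antigen of mouse macrophages, had 5.58 and 5.85 with rapamycin plus tamoxifen, 6.07 and 6.78 with tamoxifen, 5.79, 5.75 and 5.85 with rapamycin, and 5.66 and 6.26 with vehicle. Csf1r had 6.62 and 6.82 with rapamycin plus tamoxifen, 6.78 and 7.80 with tamoxifen, 7.02, 7.11 and 6.78 with rapamycin, and 6.96 and 7.22 with vehicle. The 95% intervals of the averaged tamoxifen difference were -0.21 to 0.59 for Adgre1 and -0.48 to 0.43 for Csf1r, so a rise or fall within these bounds cannot be told from none. Cx3cr1, the receptor for the membrane-bound chemokine Cx3cl1, differed by 0.06 and Ccr2 by 0.18, with limma adjusted p of 0.878 and 0.495. This role had 0 calls of 4 in limma and none at an unadjusted p under 0.05.

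Fc receptors and their signalling adaptors had positive differences for 6 of 6 genes, and none passed the test. Fcgr1 and Fcgr3, which bind immunoglobulin G, differed by 0.37 and 0.39, and Tyrobp, the adaptor also called DAP12, by 0.35. Trem2, a lipid receptor that signals through Tyrobp, differed by 0.44 ± 0.15 (SE; limma, adjusted p = 0.149). Fcer1g, the common gamma chain of Fc receptors, differed by 0.19. The inhibitory receptor Lilrb4a had 7.09 and 7.45 with rapamycin plus tamoxifen, 7.25 and 8.71 with tamoxifen, 6.54, 6.89 and 6.42 with rapamycin, and 7.39 and 7.54 with vehicle. Its 3 rapamycin arrays were the lowest of the 9, and tamoxifen 2 was more than 1 unit above any other. A further probe set that it shares with Lilr4b, not used in the tests, had 4.94 and 4.70 with rapamycin plus tamoxifen, 4.19 and 5.72 with tamoxifen, 4.20, 4.20 and 3.49 with rapamycin, and 4.25 and 4.83 with vehicle.

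Chemokines and interleukin 1 beta gave 0 calls of 5 in limma, and a single gene fell under an unadjusted p of 0.05. That gene was Ccl3, a chemokine that macrophages secrete, which had 5.18 and 5.55 with rapamycin plus tamoxifen, 5.54 and 5.87 with tamoxifen, 5.12, 5.27 and 4.98 with rapamycin, and 5.21 and 4.39 with vehicle (0.57 ± 0.18, SE; limma, adjusted p = 0.117). Ccl2, the ligand that draws Ccr2-bearing monocytes, differed by 0.38, and its highest array, rapamycin plus tamoxifen 2, stood at 6.18 against 5.69 in the next. Ccl4 and Ccl7 differed by 0.06 and 0.01. Il1b spread most of all 34 genes, over 2.46 units, between 4.14 in vehicle 2 and 6.60 in tamoxifen 2. The spread over the 9 arrays had a median of 1.16 for the 34 genes and of 0.65 for all genes.

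S100a8 and S100a9, which form calprotectin, differed by 0.70 ± 0.25 and 0.58 ± 0.26 with tamoxifen (SE; limma, adjusted p = 0.166 and 0.293). S100a8 had 3.20 and 4.15 with rapamycin plus tamoxifen, 3.62 and 2.52 with tamoxifen, 2.80, 2.76 and 2.72 with rapamycin, and 2.64 and 2.52 with vehicle. S100a9 had 4.81 and 5.09 with rapamycin plus tamoxifen, 5.20 and 3.88 with tamoxifen, 4.91, 4.31 and 4.30 with rapamycin, and 3.77 and 3.88 with vehicle. For both, tamoxifen 2 carried exactly the value of vehicle 2. Without tamoxifen 2, which leaves 1 array in that group, S100a8 differed by 0.98 and S100a9 by 0.91. Both genes lay below 5.70, the median of all gene values, in all 9 arrays. Their means stood at percentiles 9.0 and 29.0 of all genes. No detection call was available, so differences at this level may not reflect expression. Squamous epithelium also makes both proteins, and with the mean of the squamous genes as a covariate the differences were 0.44 and 0.21 (limma, adjusted p = 0.421 and 0.639). The fit with this covariate kept tamoxifen 2 and its values shared with vehicle 2. The squamous mean was among the lowest in tamoxifen 2 and both vehicle arrays, and its part in these values was not tested. Among 15 other neutrophil genes, limma called 0, and 0 fell under an unadjusted p of 0.05, at a median of 0.03.

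The calls with tamoxifen rested on few arrays. When each array was left out in turn, Ctss was called in 9 of 9 fits and Lyz2 in 8 of 9, with a limma adjusted p of 0.0542 without rapamycin plus tamoxifen 2. Clec7a and Tlr1 were called in 7 of 9 and lost without either rapamycin plus tamoxifen array, with limma adjusted p of up to 0.0595 and 0.0698. Cd68 and Itgb2 were called in only 2 of 9, with limma adjusted p of up to 0.135 and 0.13. The count of genes called was 2 without rapamycin plus tamoxifen 1, 1 without rapamycin plus tamoxifen 2, and 11 without tamoxifen 1. With tamoxifen 2 and vehicle 2 as a block, 10 genes were called, Cybb, Msr1, C1qa and Trem2 in addition, where 7.02% of all genes were called higher. With both arrays left out, 6 were called, where 3.72% of all genes were called higher. S100a9, which lay below the median of all gene values in all 9 arrays, was then among them at 0.93, and Cd68 was not.

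Set against vehicle, tamoxifen alone raised 2 of the 34 genes, where 0.933% of all genes were called higher: Lyz2 by 1.33 ± 0.27 and Tlr1 by 0.88 ± 0.17 (SE; limma, adjusted p = 0.0499 and 0.0436). In limma, 13 of the 34 were under an unadjusted p of 0.05 in either direction, as were 2423 of the 22180 genes. The median over the 34 was 0.48. Clec7a had the largest difference, 1.51 ± 0.31, and narrowly missed (SE; limma, adjusted p = 0.0522). Clec7a had 6.58 and 7.68 with tamoxifen and 5.78 and 5.45 with vehicle. Itgb2 had 6.71 and 6.93 with tamoxifen and 6.04 and 6.27 with vehicle. Both calls stood without tamoxifen 1 and were lost without any 1 of the other 8. Leaving out 1 array at a time gave medians of 0.26 to 0.68, and fewer genes were called over all genes in every such fit. As a block, the pair of arrays gave 7 calls (Lyz2, Tlr1, Clec7a, Ctss, Itgb2, C1qa and Msr1), where 2.76% of all genes were called higher, and with both left out there were 0, at a median of 0.22.

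Rapamycin plus tamoxifen against rapamycin gave 1 call, Ctss at 1.23 ± 0.24 (SE; limma, adjusted p = 0.0372), where 1.13% of all genes were called higher. Lyz2 and Clec7a stood at 0.82 and 0.84, with limma adjusted p of 0.153 and 0.208. An unadjusted p under 0.05 in limma was found for 9 of the 34, and for 3085 of the 22180 genes. The call on Ctss was lost without any 1 of the 5 arrays compared, with limma adjusted p of up to 0.318, and without either tamoxifen array 3 genes were called, Ctss, Lyz2 and Clec7a. Against vehicle, rapamycin plus tamoxifen called 0 of the 34 in limma, where 1.15% of all genes were called in either direction. Under an unadjusted p of 0.05 were 5 of the 34 (Ctss, Lyz2, Itgam, S100a8 and S100a9), and 13.7% of all genes, a like share. The median was 0.25.

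Rapamycin alone called 0 of the 34 against vehicle in limma, where 0.0496% of all genes were called in either direction. Under an unadjusted p of 0.05 were 3 of the 34, and 8.91% of all genes, a like share. The median of the 34 was -0.03. The 3 genes were Ccl7 at -0.47, Lilrb4a at -0.85 and Tlr1 at -0.48 (limma, adjusted p = 0.402, 0.545 and 0.46). Rapamycin plus tamoxifen against tamoxifen called 0 in limma, as it did 0.0% of all genes. Under an unadjusted p of 0.05 were 6 of the 34, and 5.67% of all genes. The median was -0.31 with 27 of 34 negative, and -0.072 without tamoxifen 2. The lowest unadjusted p was that of Tlr1, at -0.95 ± 0.17 (SE; limma, adjusted p = 0.781). Averaged over tamoxifen, rapamycin called 0 in limma, and 0.0496% of all genes. Here 6 of the 34 and 13.1% of all genes were under an unadjusted p of 0.05. Tlr1 had the lowest p, at -0.71 ± 0.12, and Lilrb4a stood at -0.78 ± 0.27 (SE; limma, adjusted p = 0.0906 and 0.347). Without tamoxifen 1 both were called, Tlr1 at -0.81 and Lilrb4a at -1.15 (limma, adjusted p = 0.04 and 0.0346). The median of the 34 was -0.17, with 26 negative.

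The interaction, which asks whether the tamoxifen difference itself changes with rapamycin, called 0 in limma and 0.0% of all genes. A single gene of the 34 (Msr1, -1.04 ± 0.41, SE) was under an unadjusted p of 0.05, as were 2.83% of all genes, a like share. The 95% intervals of the interaction were -0.70 to 0.94 for Ctss, -1.34 to 0.32 for Lyz2 and -1.63 to 0.28 for Clec7a. They were -0.9988 to 0.06 for Tlr1, -1.07 to 0.16 for Cd68 and -0.88 to 0.01 for Itgb2. Intervals this wide hold both no interaction and, for all of the 6 but Ctss, the loss of the whole difference between tamoxifen and vehicle. The median over the 34 was -0.26, and -0.084 without tamoxifen 2.

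**Figure D3:**
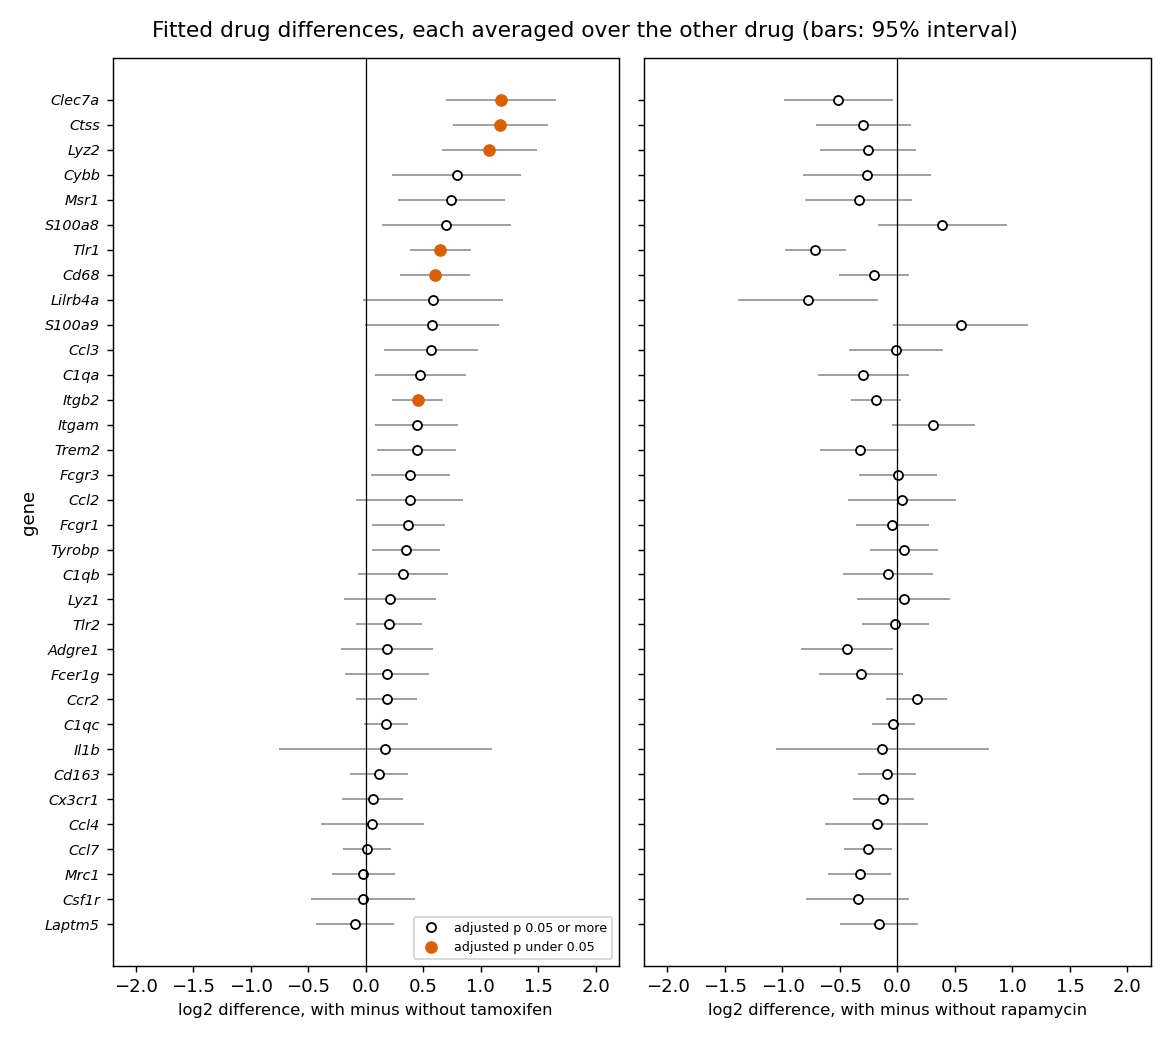
Log2 difference of each of the 34 genes with minus without tamoxifen (left) and with minus without rapamycin (right), each averaged over the other drug, with 95% intervals from limma and filled points at an adjusted p under 0.05. On the left 31 points are above 0, with a median of 0.38 and 6 filled. On the right 26 are below 0, with a median of -0.17 and none filled.

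Genes of the same pathways outside the 34 were followed by fixed lists, also chosen with earlier results of these data known. Of 25 other macrophage and dendritic genes measured, 3 rose with tamoxifen averaged over rapamycin and none fell, with a median of 0.24. They were the integrin chain Itgax, 1.08 ± 0.19, the pore-forming Mpeg1, 0.89 ± 0.19, and the lipopolysaccharide co-receptor Cd14, 0.83 ± 0.13 (SE; limma, adjusted p = 0.0107, 0.0265 and 0.00584). Cd14 had 6.67 and 7.13 with rapamycin plus tamoxifen, 6.59 and 6.96 with tamoxifen, 6.07, 6.01 and 5.94 with rapamycin, and 6.02 and 5.98 with vehicle. Of 11 genes for ligands of Csf1r and Cx3cr1 and for partners of C1q, 1 rose, the complement component C4b (1.10 ± 0.22, SE; limma, adjusted p = 0.0192).

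Among 13 other oxidase and lysosome genes 4 rose, though their median was -0.04. Cyba, the partner chain of Cybb, had 8.50 and 8.64 with rapamycin plus tamoxifen, 8.57 and 8.43 with tamoxifen, 7.84, 7.80 and 7.96 with rapamycin, and 7.91 and 7.88 with vehicle, with no overlap (0.65 ± 0.09, SE; limma, adjusted p = 0.00373). The others were the lectin Lgals3 and the cathepsins Ctsl and Ctsz, at 0.56, 0.52 and 0.36. Of 17 other monocyte and cytokine genes 3 rose, with a median of 0.33. The chemokine Ccl9 had 7.72 and 7.78 with rapamycin plus tamoxifen, 7.60 and 8.25 with tamoxifen, 7.04, 6.90 and 7.01 with rapamycin, and 6.41 and 6.35 with vehicle (1.16 ± 0.13, SE; limma, adjusted p = 0.00165). The chemokine Ccl6 and the interleukin 1 receptor antagonist Il1rn followed at 0.91 and 0.88.

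The mean of 9 pan-leukocyte genes was 6.32 and 6.34 with rapamycin plus tamoxifen, 6.34 and 6.65 with tamoxifen, 6.33, 6.35 and 6.23 with rapamycin, and 6.47 and 6.56 with vehicle, so the groups overlapped. In limma 0 of the 9 were called, 1 had an unadjusted p under 0.05, and the median was -0.09. The mean of 9 mast cell genes was 6.17 and 6.15 with rapamycin plus tamoxifen, 6.16 and 6.69 with tamoxifen, 5.94, 5.98 and 6.12 with rapamycin, and 7.32 and 7.85 with vehicle. Vehicle was thus highest for mast cells, unlike for the 34 genes. With tamoxifen averaged over rapamycin 1 of the 9 mast cell genes fell, Kit, the stem cell factor receptor that other stomach cells also carry (-1.55 ± 0.13, SE; limma, adjusted p = 0.000515). Against vehicle 2 fell with tamoxifen, Kit and the protease Mcpt1 (limma, adjusted p = 0.0169 for both). T cell means lay between 4.44 and 4.67 and B cell means between 4.21 and 4.62.

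**Figure D4:**
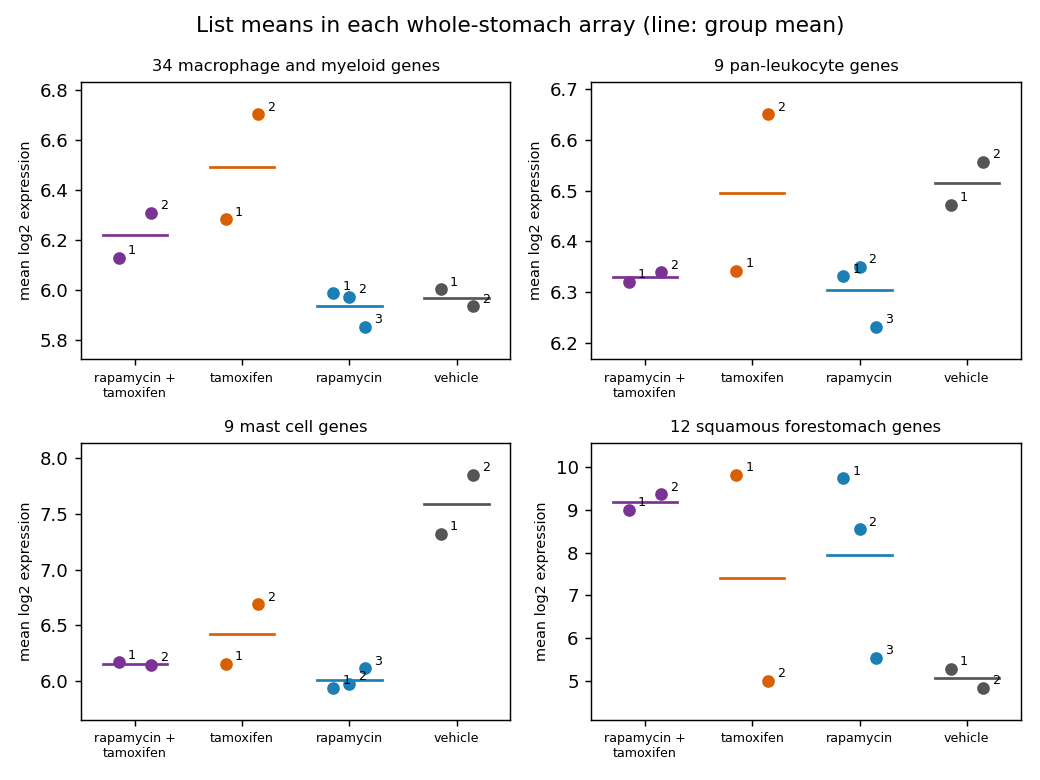
Mean log2 expression of the 34 genes and of the pan-leukocyte, mast cell and squamous lists in each whole-stomach array, by group. The 34 genes are highest in the 4 arrays with tamoxifen, mast cell genes are highest in the vehicle arrays, and squamous genes vary within groups.

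The cell fractions, 1 array each, have no replicate and so no test. The parietal and other-cell arrays have medians of 3.67 and 3.68, unlike whole stomach at 4.95 to 5.09, and are set only against each other. These 2 arrays held exactly the same value at 1918 probe sets, or 4.64% of them, but at 0 of the 34 genes. The shares over all genes given below may include such ties. Parietal cell genes checked the label, with 11 of 12 at least 2 units higher in isolated parietal cells and a median difference of 3.82. Of the 34 genes, 12 were at least 2 units lower in isolated parietal cells than in other cells, and 0 were as much higher. Over all genes, 2.05% were that much lower and 1.3% that much higher. The median difference of the 34 was -1.07, against 0.03 over all genes, with 25 negative and 9 positive.

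The largest differences were those of Lilrb4a, 1.64 in parietal cells and 8.79 in other cells, and Ccl3, 3.13 in parietal cells and 10.14 in other cells. Tyrobp followed with 3.28 in parietal cells and 8.20 in other cells, then S100a9 with 2.56 in parietal cells and 6.79 in other cells, and S100a8 with 2.46 in parietal cells and 6.10 in other cells. Fcer1g, Laptm5, Clec7a, Il1b, Ccl2, Ctss and Cx3cr1 made up the 12, at -2.95 to -2.16. The shared Lilrb4a and Lilr4b probe set had 2.52 in parietal cells and 7.96 in other cells.

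Genes of macrophages and monocytes differed in direction between the fractions, several of them at low values. Adgre1, C1qb, Mrc1 and Cd163 lay below the array medians of 3.67 and 3.68 in both fractions. No detection call was available, so a difference at this level may not reflect expression. Among the receptors, Cx3cr1 differed by -2.16 and Ccr2 by -1.33, while Adgre1 had 2.32 in parietal cells and 2.13 in other cells, C1qa had 4.27 in parietal cells and 4.07 in other cells, and C1qb had 3.43 in parietal cells and 3.24 in other cells. Mrc1 had 3.16 in parietal cells and 2.29 in other cells, and Cd163 had 2.60 in parietal cells and 2.21 in other cells, while Csf1r had 3.63 in parietal cells and 4.06 in other cells. The median of the 4 receptors Adgre1, Csf1r, Cx3cr1 and Ccr2 was -0.88, and that of the C1q chains 0.21. Of the genes that rose with tamoxifen, Ctss (-2.25) and Clec7a (-2.78) passed 2 units, while Lyz2 (-1.14), Tlr1 (-1.06), Cd68 (-0.70) and Itgb2 (-0.65) did not.

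Other lists give the makeup of the other-cell array. Of 9 mast cell genes 7 were at least 2 units lower in parietal cells, with a median of -3.25. The mast cell protease Mcpt2 had 2.81 in parietal cells and 10.30 in other cells, and Mcpt1 had 2.86 in parietal cells and 10.13 in other cells. Of 9 pan-leukocyte genes 3 were that much lower, Ptprc, Cd52 and Arhgdib, and of 25 other macrophage and dendritic genes 1, Cd53 at -4.34. Il6, which many cell types secrete, differed by -5.75. T cell and B cell lists had medians of 0.10 and 0.08. Mast cells carry Fcer1g as part of their IgE receptor and can also make Ccl3, and the part of mast cells in the values of the 12 genes was not tested.

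**Figure D5:**
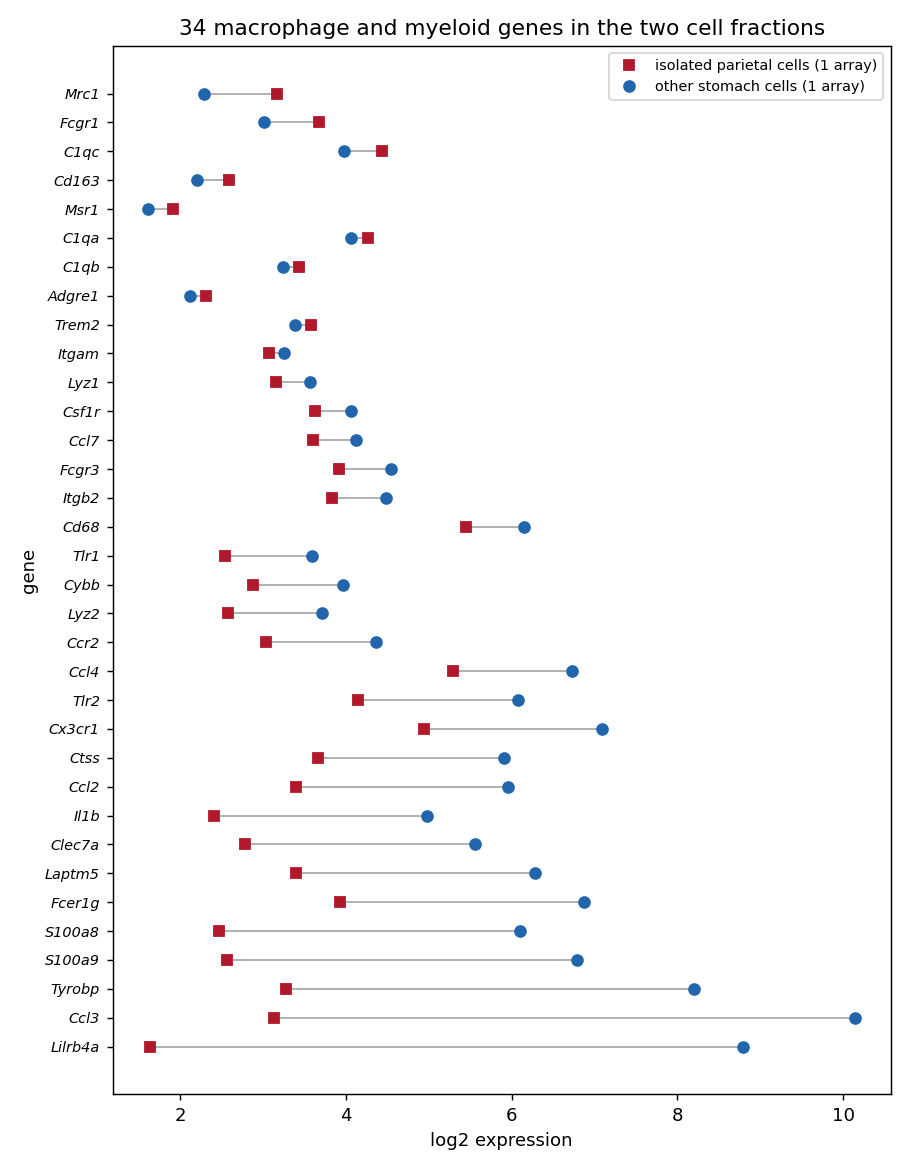
Log2 expression of the 34 genes in isolated parietal cells (squares) and in other stomach cells (circles), 1 array each, ordered by the difference. Lilrb4a, at 1.64 in parietal cells and 8.79 in other cells, lies at the bottom, and Mrc1, at 3.16 in parietal cells and 2.29 in other cells, at the top.

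The array with the highest value of a gene was most often tamoxifen 2, which was highest for 24 of the 34 genes and for 17.4% of all genes. Rapamycin plus tamoxifen 2 was highest for 5 of the 34 and 7.26% of all genes. No rapamycin array was highest for any of the 34, and in all 31 had their highest value in an array with tamoxifen. The mean of the 34 in tamoxifen 2 was 6.70, against 6.31 in the next array.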

How the data were processed

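Total RNA of 9 whole-stomach samples and 2 cell fractions was amplified and biotin-labelled for Affymetrix arrays, per the labels' protocols. The deposited values are log2 expression made with RMA in Partek, per the submitters' processing notes. Versions of both: not given in the sources used here. Each array has 41345 probe sets. Of these, 23521 had 1 gene symbol in the platform table, 23328 of them matched RefSeq genes on GRCm38.p6 by gene ID, and the probe set with the highest mean over the 9 whole-stomach arrays was kept for each of 22180 genes. Array intensities carry no counts, so the small number of arrays limits precision. limma 3.58.1 in R 4.3.3 fitted 4 group means over all genes with 1 shared spread (5 residual and 3.86 prior degrees of freedom) and 8 contrasts. Benjamini-Hochberg adjustment ran over all genes within each contrast, with calls at 0.05. Tested on simulated data with 22180 genes, the tamoxifen contrast averaged over rapamycin recovered 82% of changes set at 1 log2 unit and 98% of those set at 2. For rapamycin averaged over tamoxifen these were 72% and 98%. At 1 unit, single comparisons recovered 43% for tamoxifen against vehicle, 56% for rapamycin plus tamoxifen against rapamycin, 50% for the combination against tamoxifen and 52% for rapamycin against vehicle. Noise in the simulated data was independent between arrays, without the values shared by tamoxifen 2 and vehicle 2. Recovery in the real arrays may therefore differ. The fractions were compared by difference alone, past 2 log2 units.

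The 34 genes, their roles and the other lists were chosen with earlier results of these data known. All 34 genes may be named, with, from every other list, up to 4 of the largest called differences and up to 3 between fractions. Alternatives were another normalization, a filter on dim genes, averaging all probe sets of a gene, a fit of only the groups compared, a trended and robust fit, the squamous mean as a covariate, a replicate block and leaving out each array. Deviations of same-numbered arrays correlated between -0.11 and 0.56, and not every pair was over 0.1, so the numbers were not taken to pair samples.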

Additional observations from a re-analysis of the deposited data

Results flagged for a closer look

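In 2 genes the difference with a drug ran in opposite directions, in every array, without and with the other drug. Neither passed the test of the difference itself. The share of all genes with this arrangement was not counted. Groups of 2 or 3 arrays can separate in this way by chance, so no drug effect is read from it. For C1qc the rapamycin and vehicle arrays were barely parted, at 6.82 against 6.80. C1qc was lower in both rapamycin plus tamoxifen arrays than in both tamoxifen arrays, at 6.96 and 6.88 against 7.06 and 7.07, and higher in all 3 rapamycin arrays than in both vehicle arrays, at 6.91, 6.82 and 6.83 against 6.80 and 6.77. Its interaction was -0.22 (limma, adjusted p = 1.0). Ccl7 was higher in both rapamycin plus tamoxifen arrays than in all 3 rapamycin arrays, at 5.40 and 5.37 against 5.22, 5.02 and 5.24, and lower in both tamoxifen arrays than in both vehicle arrays, at 5.35 and 5.50 against 5.63 and 5.62. Its interaction was 0.42 (limma, adjusted p = 1.0).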

How the results depend on the processing

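No called value changed direction. The median for rapamycin against vehicle, near 0 at -0.03, ranged between -0.085 and 0.08 over the alternatives. Tamoxifen against vehicle called 2 genes. The count was 1 after renewed quantile normalization, 0 with median centring, 5 without dim genes and 1 with all probe sets of a gene averaged. It was 0 in a fit of only the groups compared and 4 with trend and robust fitting. With the replicate block it was 1, Msr1, and both Lyz2 and Tlr1 were lost. It was 7 with vehicle 2 and tamoxifen 2 as a block and 0 with both left out, at a median of 0.22. Leaving out 1 array gave 0 to 5, with medians of 0.26 to 0.68. Rapamycin plus tamoxifen against rapamycin called 1, and 0 with median centring, 3 in a fit of only the groups compared, 2 with the pair as a block, 3 with the pair left out, and 0 to 3 without 1 array. Against vehicle it called 0, and 1 in a fit of only the groups compared and with the pair as a block. Tamoxifen averaged over rapamycin called 6, 4 with the replicate block, 10 with the pair as a block, 5 to 7 under the others that kept all arrays, 6 with the pair left out, and 1 to 11 without 1 array. Rapamycin averaged over tamoxifen called 0, and 0 to 2 without 1 array. The median of rapamycin plus tamoxifen against tamoxifen was -0.52 to -0.072 without 1 array and -0.072 with the pair left out, and that of the interaction -0.47 to -0.084 and -0.044. The count of 12 genes lower in isolated parietal cells stayed 12 with the fractions quantile normalized to each other. Averaging probe sets could not move it, since each of the 34 genes has 1. The replicate block used shared numbers that the labels give no meaning, and it changed no other count by over 1.5 times. Calls over all genes moved between these alternatives too, so a count for the 34 is not read apart from them. The causes were not tested.

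With 2 or 3 arrays a group, and 1 for each fraction, a gene that missed the threshold is not shown to be unchanged. RNA levels of squamous, mast cell and parietal cell genes differed between the groups or within them. Bulk RNA does not tell cell content from RNA per cell, and does not separate these cells from myeloid cells.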
